A study of Oryza sativa Japonica Group with 49 samples.

Results

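The transcriptomes of onac023 seedlings under heat and under drought were compared with each other, within that 1 line. Rice NAC transcription factor ONAC023 was studied as a regulator of both drought and heat tolerance, and onac023 is its T-DNA insertion mutant in the japonica variety Dongjin (DJ). RNA-seq was performed on 4-leaf seedlings. By the labels, the 3 onac023 heat libraries came from seedlings kept at 45 °C and 70% relative humidity for 6 h, and the 3 onac023 drought libraries from seedlings left without water for 7 d until the relative soil water content was below 10%. The paper's RNA methods state other durations for both stresses, and the labels were followed. These 6 libraries were chosen by their labels, out of the 31 RNA-seq libraries analysed here and 49 samples in the series. Both groups carry the same insertion, and the labels give them no further allele or agent. The line is a single T-DNA mutant, and each library pooled the seedlings of 1 repeat of the treatment, so that p-values measure the spread between repeats. Repeats of the ChIP samples, taken from the seedlings used for RNA-seq, are described by the study as separate seedling batches with separate treatments. No unstressed onac023 library was analysed here. The same contrast in DJ-WT, the wild-type segregants of the insertion line (3 libraries per stress), in seedlings of the variety Zhonghua 11 (ZH11; 3 per stress), and the responses to drought in DJ seedlings and to heat in ZH11 seedlings (3 libraries per group) are given only for comparison.

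Heat unfolds proteins. Plant cells answer through heat shock factors (HSFs), which switch on genes for small heat shock proteins and for the ATP-driven HSP70, HSP90 and HSP100 chaperones. Water deficit raises abscisic acid (ABA), whose signal passes from PYR/PYL receptors through PP2C phosphatases and SnRK2 kinases to genes for late embryogenesis abundant (LEA) proteins, dehydrins and solute synthesis. In leaves, prolonged drought is also known to lower the expression of photosynthesis genes and to speed senescence, in which NAC factors take part.

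The onac023 drought libraries held 40091745 to 43797883 counts and the heat libraries 51868655 to 63406027. The 10 genes with the most counts took 6.15% to 6.75% of a drought library and 14.1% to 18.2% of a heat library, and TMM factors, which correct for such differences in composition, were 1.22 to 1.27 for drought and 0.770 to 0.859 for heat. Expression is given below as counts per 1000000 after this correction (normalised CPM), and fold changes are log2 of heat over drought. ONAC023 itself (LOC_Os02g12310) had 0, 2 and 0 counts in the onac023 heat libraries and 6, 4 and 9 in the drought libraries, and did not reach the level needed for testing. It had 105, 126 and 180 counts in the DJ-WT heat libraries and 257, 222 and 65 in the DJ-WT drought libraries. Genes expressed in only 1 of the varieties went against the DJ-WT label. Of 25 genes expressed in ZH11 but not in DJ seedlings, all 25 had at least 10 counts in each DJ-WT library, against 15 to 18 in the onac023 libraries. Of 27 genes expressed in DJ but not in ZH11, 26 or 27 did so in the onac023 libraries and 22 to 27 in the DJ-WT libraries. Comparisons between the lines below therefore cannot tell the mutation apart from variety background. The onac023 libraries have 26 or 27 of the DJ genes in both stresses, but also part of the ZH11-only genes. Summed CPM of the latter was 61.2 to 197.6 in onac023 drought and 85.5 to 118.4 in onac023 heat libraries, against 543.5 in ZH11 seedlings. Their part in the onac023 contrast was not tested.

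The stresses separated 50.4% of the genes tested. A gene with a Benjamini-Hochberg adjusted p under 0.05 in edgeR's quasi-likelihood test and a difference over 2-fold was counted as a differentially expressed gene (DEG). Of 23506 genes tested among 55986, 6004 (25.5%) were DEGs higher under heat and 5837 (24.8%) were DEGs higher under drought. All 3 heat libraries exceeded all 3 drought libraries for 37.2% of the genes tested, and the reverse held for 39.2%. These shares are the background over all genes for the counts of each gene group below. The groups were drawn from annotated genes of the study's supplement, where both shares were larger: 1471 of 4281 were DEGs higher under heat and 1522 under drought. The study's full lists of genes differing between the lines are longer than their annotated and tested part given here. Of 1460 such genes listed as higher in onac023 than in DJ-WT under drought, 910 were higher under drought and 187 under heat. Of 1470 listed as lower under drought, 987 were higher under heat and 81 under drought. Of 1003 listed as lower in onac023 under heat, 430 were higher under drought and 211 under heat. The median log2 fold change over all genes tested was -0.04. Scaling by library totals alone, without the composition factors, moved that median to -0.66 and the DEG counts to 3892 higher under heat and 9335 higher under drought, so that differences below are relative to the bulk of the genes. Fewer genes were detected under heat. Genes with at least 1 CPM, taken here over uncorrected library totals, numbered 17604, 17557 and 17451 in the heat libraries. The drought libraries had 19084, 18741 and 18975, with no overlap. The mean difference was -1396 (two-sided exact permutation test, p = 0.1, the smallest that 3 against 3 libraries allow). On the normalised scale this cutoff was higher for heat than for drought libraries, and the part of composition in the difference was not tested. In these bulk samples, fewer cells of a type and less RNA per cell cannot be told apart.

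**Figure D1:**
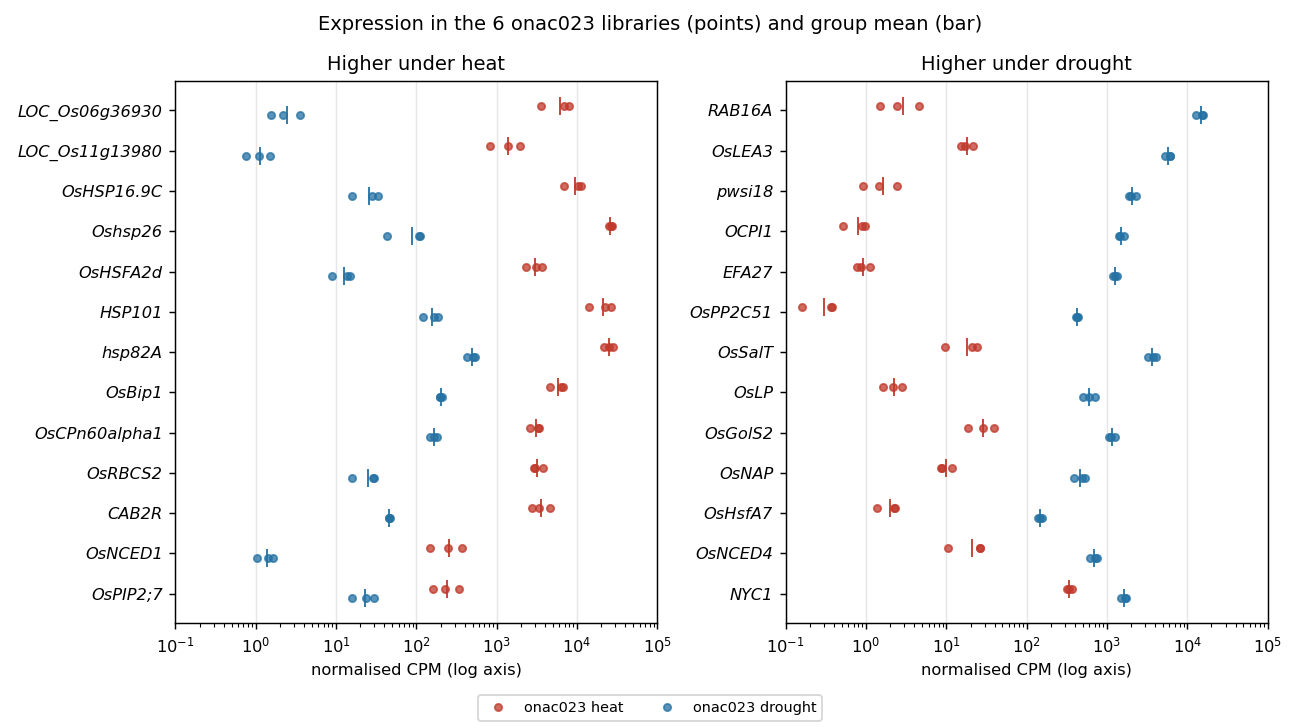
Normalised CPM (log axis) of 13 genes higher under heat (left) and 13 higher under drought (right) in the 3 onac023 heat libraries (red) and the 3 onac023 drought libraries (blue). Points are libraries and vertical bars are group means. The libraries of the 2 stresses do not overlap for any of these genes, which was a condition for naming genes from the lists. Oshsp26 and RAB16A stand near the top of opposite panels.

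Chaperone genes were far higher under heat. Of 20 small heat shock protein genes, all of which passed the filter on low counts, 18 were DEGs higher under heat and none was higher under drought, with a median log2 fold change of 5.63. Of 16 genes for HSP70, HSP90 and HSP100 chaperones and their activators, 15 were higher under heat and none under drought (median 3.63). Small heat shock protein genes took 13.9%, 10.0% and 12.6% of all counts in the heat libraries and 0.230%, 0.336% and 0.324% in the drought libraries. The larger chaperones took 11.5%, 8.58% and 10.6% under heat and 0.577% to 0.623% under drought. Heat replicate 2 was the lowest of the heat libraries for both groups, and still far above every drought library. In DJ seedlings 15 of the 20 small heat shock protein genes were higher in drought than in normal watering (median 3.47, background 25.2%). Of the 16 larger chaperone genes, 9 were higher there and 2 lower (median 2.045). In ZH11 seedlings all 20 and 14 of the 16 were higher in heat than in normal conditions (background 31.4%), and 1 of the 16 was lower. Of the small heat shock protein genes, 15 were listed by the study as higher in onac023 than in DJ-WT under drought, a choice made on the drought libraries used here.

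Oshsp26 (LOC_Os03g14180), a chloroplast small heat shock protein, reached 26989, 24735 and 26609 normalised CPM under heat and 43.4, 111 and 108 under drought. The difference was 8.22 ± 0.46 (SE) on the log2 scale (edgeR adjusted p = 1.91e-07). OsHSP16.9C (LOC_Os01g04360), of the cytosolic class, reached 10380.0, 6872 and 11262 under heat and 15.6, 32.9 and 28.1 under drought. Every heat library exceeded every drought library for both genes, as the rule for naming genes from the lists required. OsHSP16.9C lies in a run of near-identical neighbours, LOC_Os01g04340 to LOC_Os01g04380, among which the counting could have split reads. LOC_Os11g13980, annotated as an hsp20/alpha crystallin protein, had the largest difference of the group, 10.28 ± 0.46 (SE) (edgeR adjusted p = 5.02e-08), from 0.758, 1.50 and 1.11 normalised CPM under drought to 1977, 814 and 1364 under heat. It was low in every drought library.

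Among the larger chaperones, HSP101 (LOC_Os05g44340), the disaggregase needed for acquired thermotolerance in plants, stood at 26306, 14292 and 22002 normalised CPM under heat and 120.0, 185 and 165 under drought (log2 fold change 7.06 ± 0.36 (SE), edgeR adjusted p = 1.20e-07). The HSP90 gene hsp82A (LOC_Os08g39140) stood at 27950.0, 21604 and 25012 under heat and 423, 542 and 509 under drought (log2 fold change 5.66 ± 0.27 (SE)). An HSP70-type gene annotated as DnaK (LOC_Os01g62290) stood at 28174, 15016 and 23463 under heat and 161, 241 and 202 under drought. These genes were also well expressed in every drought library, unlike LOC_Os11g13980. LOC_Os04g01740, annotated as a heat shock protein, and rFKBP65 (LOC_Os04g28420), a peptidyl-prolyl isomerase, which were among the 10 genes with the most counts under heat, had log2 fold changes of 6.64 ± 0.33 (SE) and 5.79 ± 0.32 (SE).

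All of the 10 genes with the highest mean normalised CPM under heat were in these groups except rFKBP65, and 5 of them coded for small heat shock proteins. Besides Oshsp26, these were LOC_Os03g15960 and LOC_Os03g16020, with log2 fold changes of 5.21 ± 0.30 (SE) and 7.80 ± 0.38 (SE), OsHSP18.2 with 5.38 ± 0.31 (SE), and Oshsp16.9 with 4.37 ± 0.28 (SE). LOC_Os03g15960 and LOC_Os03g16020 share a cluster with OsHSP17.7 (7.70 ± 0.46 (SE)), and reads could have been split among its members.

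Chaperones of the other compartments were higher under heat as well. BiP proteins are the HSP70s of the endoplasmic reticulum. All 3 of the BiP genes tested, out of 4, were DEGs higher under heat. OsBip1 (LOC_Os02g02410) had 6382, 4604 and 6655 normalised CPM under heat and 195, 209 and 197 under drought (log2 fold change 4.87 ± 0.23 (SE), edgeR adjusted p = 6.60e-08). OsBiP4 (LOC_Os05g35400) had 23.5, 20.1 and 29.0 under heat and no count in any drought library, so that it was at least 1267-fold higher under heat when 3 counts over the drought group are taken as the floor. OsBiP2 had a log2 fold change of 5.11 ± 0.27 (SE). The 7 chaperonin genes, whose products form the barrel-shaped folding chambers of the cytosol and plastid, were all higher under heat (median 3.41). The chaperonin gene LOC_Os10g32550 had 2002, 2606 and 2548 normalised CPM under heat and 41.8, 52.1 and 46.7 under drought. OsCPn60alpha1 had a log2 fold change of 4.23 ± 0.19 (SE).

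DnaJ co-chaperones, which hand clients to HSP70, went both ways. Of 10 tested out of 11, 3 were higher under heat and 3 under drought, near the shares of annotated genes given above. LOC_Os06g02620 was higher under heat (2.12 ± 0.15 (SE)), and LOC_Os06g44160 was higher under drought (-3.85 ± 0.22 (SE)), with 432, 411 and 369.6 normalised CPM under drought against 21.8, 37.8 and 24.4 under heat. Of 13 ubiquitin genes tested out of 20, 3 were higher under heat (median 0.53), among them the polyubiquitin gene rubq2 (1.57 ± 0.18 (SE)), whose difference was 0.94 when libraries were scaled by totals. Ubiquitin genes share near-identical repeats. Of 14 cytosolic ribosomal protein genes, 2 were higher under heat and none under drought (median 0.45).

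HSF genes were divided between the stresses. Of 10 tested out of 11, 8 were DEGs higher under heat and 2 were DEGs higher under drought. The study listed 9 of the 11 as higher in onac023 than in DJ-WT under drought, a choice made on these drought libraries. LOC_Os06g36930, with an HSF-type DNA-binding domain, had 7864, 3589 and 6844 normalised CPM under heat and 1.57, 3.50 and 2.19 under drought, the largest log2 fold change of the group at 11.30 ± 0.51 (SE) (edgeR adjusted p = 5.44e-08). OsHSFA2d (LOC_Os03g06630) had 3653, 2290.0 and 3056 under heat and 8.91, 13.5 and 15.0 under drought (log2 fold change 7.91 ± 0.32 (SE)). In Arabidopsis, a class A2 factor is known to sustain the heat shock response after its onset. LOC_Os03g53340, with the same domain, had a log2 fold change of 6.33 ± 0.32 (SE). In the opposite direction, OsHsfA7 (LOC_Os01g39020) had 137, 148 and 154 normalised CPM under drought and 1.37, 2.29 and 2.25 under heat (log2 fold change -6.21 ± 0.21 (SE), edgeR adjusted p = 1.27e-08). LOC_Os02g13800 had 56.8, 47.8 and 69.7 under drought and 1.37, 0.382 and 0.865 under heat (log2 fold change -6.06 ± 0.34 (SE)). No library of one stress overlapped the other for these 4 genes, again a condition for naming them. In other seedlings the drought-higher pair was higher in stress than in normal conditions for both stresses: OsHsfA7 by 7.76 in drought (DJ) and 2.80 in heat (ZH11), and LOC_Os02g13800 by 6.95 and 4.32. Scaling by totals left 6 HSF genes higher under heat and 2 higher under drought.

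**Figure D2:**
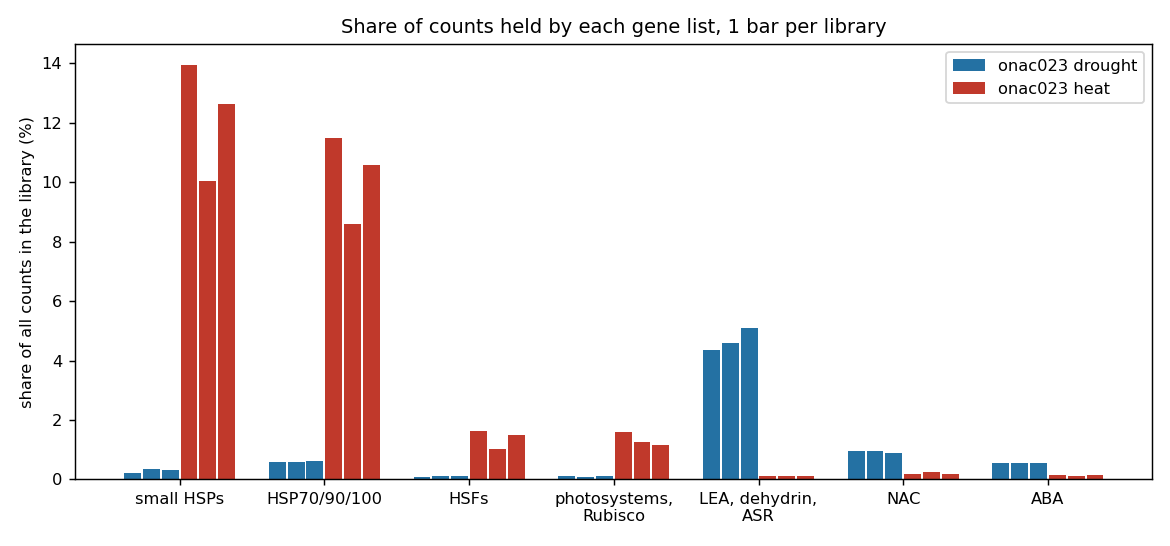
Share of all counts (%, y axis) held by 7 gene lists in each onac023 library, with 1 bar per library (drought in blue, heat in red). Small heat shock proteins hold 10.0% to 13.9% of the counts under heat, and LEA, dehydrin and ASR genes 4.35% to 5.09% under drought.

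LEA and dehydrin genes were the counterpart in the drought libraries. LEA proteins and dehydrins are hydrophilic proteins that protect cells as they dry, and ASR proteins are ABA-, stress- and ripening-induced. Of 24 genes tested out of 25, 22 were DEGs higher under drought and 1 was a DEG higher under heat, with a median log2 fold change of -9.11, which was the same when the 2 genes without a count in heat were set to their bound. The list took 4.35%, 4.61% and 5.09% of all counts in the drought libraries and 0.123%, 0.0980% and 0.121% in the heat libraries. In DJ seedlings 22 of the 24 were higher in drought than in normal watering (background 25.2%, and 54.4% for DEGs in either direction), and in ZH11 seedlings 11 of 16 tested were higher in heat than in normal conditions (background 31.4%, and 56.0% for either direction). Of the 25 genes, 22 were listed by the study as higher in onac023 than in DJ-WT under drought, so the direction of this list was chosen in part on the same drought libraries.

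RAB16A (LOC_Os11g26790), the dehydrin gene first known as responsive to ABA, had 12887, 15241 and 15907 normalised CPM under drought and 2.42, 1.50 and 4.63 under heat. The difference was -12.32 ± 0.52 (SE) on the log2 scale (edgeR adjusted p = 3.90e-08). It has near-identical neighbours on the same chromosome (LOC_Os11g26750 to LOC_Os11g26780), among which reads could have been split. OsLEA3 (LOC_Os05g46480), a group 3 LEA protein, had 5226, 6063 and 6010.0 under drought and 17.1, 15.0 and 21.5 under heat (log2 fold change -8.33 ± 0.26 (SE)). The LEA gene pwsi18 had 1987, 1871 and 2284 under drought and 2.44, 0.921 and 1.47 under heat (log2 fold change -10.31 ± 0.38 (SE)), and the dehydrin gene OsLEA25 had 2607, 2819 and 3313 under drought and 0.296, 0.0898 and 0 under heat. The heat libraries were low for all 4 genes, highest for OsLEA3, and the drought libraries lay close together.

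LOC_Os08g23870, a group 1 LEA gene, had 511, 449 and 559 normalised CPM under drought and no count under heat, at least 23326-fold higher under drought. The seed protein gene OsEm also had no count under heat and was at least 2060.2-fold higher under drought. The smallest drought-higher and the opposite difference among the genes named here belonged to a dehydrin and an ASR gene. OsDhn1 (LOC_Os02g44870) had 3639, 3856 and 4006 normalised CPM under drought and 964, 714 and 1028 under heat (log2 fold change -2.09 ± 0.19 (SE)). Asr3 (LOC_Os02g33820) was the only member higher under heat, with 95.0, 104 and 109 under heat and 12.1, 15.0 and 12.9 under drought (log2 fold change 2.95 ± 0.13 (SE), edgeR adjusted p = 5.23e-08). In DJ seedlings Asr3 was lower in drought than in normal watering (-2.06).

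Genes of ABA synthesis, breakdown and signalling went both ways. Of 14 genes, all tested, 9 were DEGs higher under drought and 3 were DEGs higher under heat (median -2.21). The study listed 10 of the 14 as higher in onac023 than in DJ-WT under drought, a choice made on these drought libraries. The NCED enzymes, which cleave carotenoids in the rate-limiting step of ABA synthesis, were split. OsNCED1 (LOC_Os02g47510) had 367, 249 and 149 normalised CPM under heat and 1.05, 1.41 and 1.64 under drought (log2 fold change 7.55 ± 0.38 (SE), edgeR adjusted p = 1.10e-07). OsNCED4 (LOC_Os07g05940) had 26.5, 10.4 and 26.2 under heat and 616, 716 and 746 under drought (log2 fold change -5.04 ± 0.35 (SE)). OsNCED1 was thus low in each drought library and OsNCED4 in each heat library. In DJ seedlings, OsNCED1 was lower in drought than in normal watering (-7.29) and OsNCED4 higher (9.43). In ZH11 seedlings, OsNCED1 was lower in heat than in normal conditions (-4.47) and OsNCED4 higher (10.86).

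Downstream, named phosphatase, receptor and kinase genes took opposite directions. PP2C phosphatases hold SnRK2 kinases inactive until ABA is bound by its receptor. OsPP2C51 (LOC_Os05g49730) had 407, 435 and 418 normalised CPM under drought and 0.365, 0.382 and 0.161 under heat (log2 fold change -10.45 ± 0.26 (SE), edgeR adjusted p = 5.31e-09). OsPP2C68 had 793, 804 and 761 under drought and 24.6, 11.9 and 25.1 under heat (log2 fold change -5.26 ± 0.29 (SE)). The receptor gene OsPYL1 was higher under heat, with 13.0, 10.9 and 11.0 normalised CPM against 3.19, 2.21 and 2.79 (log2 fold change 2.09 ± 0.19 (SE)), and so was the SnRK2 kinase gene SAPK7, with 8.68, 5.82 and 8.07 against 1.23, 1.19 and 1.21 (log2 fold change 2.64 ± 0.22 (SE)). Libraries of the 2 stresses did not overlap for any of these 4 genes, a condition for naming genes from the lists.

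Among the genes with the most counts or the largest differences, 4 further genes of mixed kinds were higher under drought. OsSalT (LOC_Os01g24710), a jacalin-like lectin, had 3734, 4065 and 3238 normalised CPM under drought and 24.4, 9.68 and 20.9 under heat (log2 fold change -7.65 ± 0.39 (SE)). OCPI1, a chymotrypsin inhibitor-like protein, had 1469, 1641 and 1411 under drought and 0.980, 0.517 and 0.885 under heat (log2 fold change -10.88 ± 0.28 (SE)). EFA27, a caleosin of lipid bodies, had 1249.7, 1350.0 and 1192 under drought and 0.775, 0.853 and 1.13 under heat (log2 fold change -10.42 ± 0.23 (SE)). All heat libraries of OCPI1 and most of those of EFA27 were under 1 normalised CPM. OsMT-II-1a, named for metallothioneins but described only as an expressed protein, had a log2 fold change of -11.08 ± 0.35 (SE).

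The 10 genes with the highest mean normalised CPM under drought were of mixed kinds. Among them, 7 were DEGs higher under drought: RAB16A, its neighbour LOC_Os11g26780 (-11.68 ± 0.36 (SE)), OsLEA3, OsDhn1, OsSalT, RAMY (-1.88 ± 0.18 (SE)) and LOC_Os01g05650 (-2.66 ± 0.18 (SE)). The last carries no description in the annotation used. The other 3 were abundant in both stresses and were not DEGs. They were the thioredoxin gene OsTRXh1 (0.11 ± 0.18 (SE)), the epimerase/dehydratase gene LOC_Os05g51670 (-0.13 ± 0.17 (SE)) and LOC_Os03g46770 (0.89 ± 0.21 (SE)).

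Solute genes were divided, with 4 of 10 higher under each stress, near the shares of annotated genes given above. On the same drought libraries, the study listed 7 of the 10 as higher in onac023 than in DJ-WT and 3 as lower. OsGolS2, galactinol synthase, the first committed step of raffinose synthesis, had 1110.1, 1055 and 1258 normalised CPM under drought and 28.8, 18.6 and 39.1 under heat (log2 fold change -5.31 ± 0.29 (SE)). OsTRE1, the trehalase that splits trehalose, was also higher under drought (-4.93 ± 0.20 (SE)). The proline transporter gene OsProT1 (3.09 ± 0.26 (SE)) and the trehalose-6-phosphate phosphatase gene OsTPP1 (2.01 ± 0.19 (SE)) were higher under heat.

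**Figure D3:**
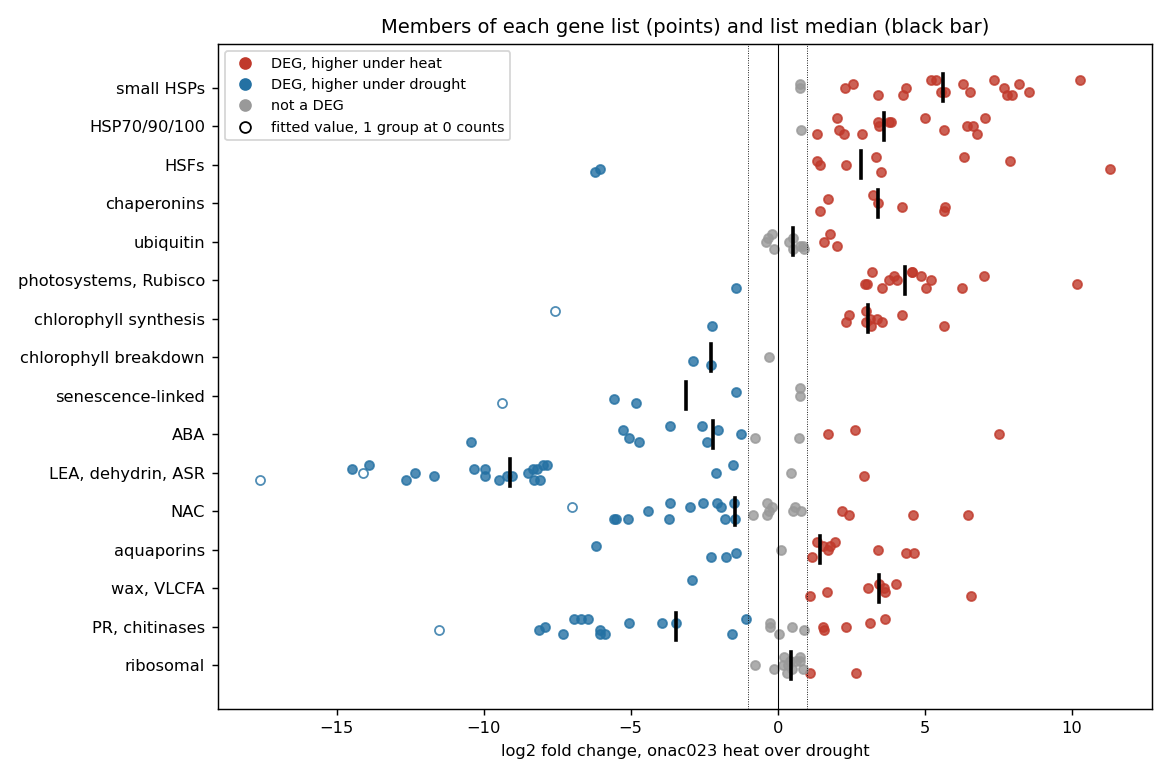
Log2 fold change of heat over drought (x axis) for the tested members of 16 gene lists in onac023. Points are genes, red for DEGs higher under heat, blue for DEGs higher under drought and grey for other genes; open points are fitted values of genes without a count in 1 stress, black bars are list medians and dotted lines mark 2-fold. Small heat shock proteins lie to the right (median 5.63) and LEA, dehydrin and ASR genes to the left (median -9.11).

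NAC factor genes were mostly higher under drought. Of 26 tested out of 32, 14 were DEGs higher under drought and 4 were DEGs higher under heat (median -1.46). On libraries used here, the study listed 12 of the 32 as higher in onac023 than in DJ-WT under drought. It listed 11 as lower under drought and 8 as lower under heat. OsNAP (LOC_Os03g21060), which promotes leaf senescence in rice, had 526, 484 and 391 normalised CPM under drought and 8.91, 11.9 and 8.69 under heat (log2 fold change -5.57 ± 0.20 (SE), edgeR adjusted p = 1.91e-08). LOC_Os07g48450 had 279.9, 236 and 164 under drought and 6.61, 4.76 and 3.78 under heat (log2 fold change -5.49 ± 0.28 (SE)), and ONAC016 had a log2 fold change of -5.10 ± 0.51 (SE). OsSND2, a regulator of secondary wall formation, was higher under heat, with 8.61, 6.40 and 11.7 normalised CPM against 0.271, 0.287 and 0.527 (log2 fold change 4.61 ± 0.34 (SE)). SNAC1 (LOC_Os03g60080), a NAC factor of drought resistance, was not a DEG. It had 1643, 1889 and 1477 normalised CPM under heat and 1784, 1928 and 2033 under drought, overlapping ranges, and a log2 fold change of -0.20 ± 0.17 (SE) (edgeR adjusted p = 0.303). SNAC1 was higher than in normal conditions by 4.81 in DJ drought and by 4.81 in ZH11 heat.

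Photosynthesis genes were higher under heat than under drought. Of 16 genes for photosystem, antenna and electron carrier proteins and the small subunit of Rubisco tested out of 17, 15 were DEGs higher under heat and 1 was a DEG higher under drought (median 4.32). The list took 1.61%, 1.24% and 1.14% of all counts under heat and 0.104%, 0.0803% and 0.101% under drought. The 7 green shoot markers, all of them also in this list, took 0.848% to 1.17% under heat and 0.0403% to 0.0540% under drought, and none was at 0 in any library. Their part in the other differences was not tested. Of the 17 genes, 11 were listed by the study as lower in onac023 than in DJ-WT under drought, again a choice made on these drought libraries. The other 6, listed from protein interaction, held 5 DEGs higher under heat and 1 higher under drought. In DJ seedlings 16 of the 17 were lower in drought than in normal watering (background 29.1%). In ZH11 seedlings 12 were lower in heat than in normal conditions (background 24.5%) and 1 was higher.

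OsRBCS2 (LOC_Os12g17600), a small subunit of the CO2-fixing enzyme Rubisco with near-identical copies, had 3754, 2959.5 and 2882 normalised CPM under heat and 29.2, 16.0 and 28.9 under drought (log2 fold change 7.01 ± 0.31 (SE), edgeR adjusted p = 5.13e-08). The antenna gene CAB2R had 4556, 2752 and 3347 under heat and 47.2, 45.0 and 45.7 under drought (log2 fold change 6.27 ± 0.25 (SE)), and Lhcb5, a minor antenna of photosystem II, had a log2 fold change of 5.23 ± 0.21 (SE). LOC_Os01g52240, another chlorophyll a/b-binding protein, had 430.4, 248 and 349.8 under heat and 0.289, 0.0615 and 0.509 under drought, the largest difference of the list (10.19 ± 0.46 (SE)). The exception was psbS2 (LOC_Os04g59440), a sensor protein that turns excess light energy to heat. It had 115, 117 and 135 normalised CPM under drought and 59.5, 52.3 and 26.8 under heat (log2 fold change -1.41 ± 0.25 (SE)), and was not called when tested against a 2-fold difference.

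Chlorophyll synthesis and breakdown genes pointed in opposite directions. Of 12 synthesis genes, 10 were DEGs higher under heat and 2 were higher under drought (median 3.08); 10 of the 12 had been listed as lower in onac023 under drought. OsPORA and OsPORB, the light-dependent reductases that make chlorophyllide, had log2 fold changes of 5.67 ± 0.78 (SE) and 4.25 ± 0.25 (SE). OsPORA varied widely among the heat libraries, at 209, 20.4 and 57.1 normalised CPM, against 1.52, 1.80 and 2.28 under drought. OsCHLH, the large subunit of magnesium chelatase, was higher under heat (3.56 ± 0.22 (SE)). OsCAO1, which makes chlorophyll b, was higher under drought, with 109, 114 and 107 normalised CPM against 29.5, 23.3 and 17.4 under heat (log2 fold change -2.24 ± 0.18 (SE)). The other, OsCAO2 (LOC_Os10g41760), had 20, 35 and 19 counts under drought and none under heat, at least 22.0-fold higher under drought.

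Of 3 chlorophyll breakdown genes, 2 were higher under drought and none under heat. On these drought libraries, the study listed 2 of the 3 as higher in onac023 than in DJ-WT and 1 as lower. NYC1, the chlorophyll b reductase, had 1689.6, 1746 and 1482 normalised CPM under drought and 322, 366 and 336 under heat (log2 fold change -2.26 ± 0.15 (SE)), and NYC3, a hydrolase of the same pathway, had 591, 622 and 554 under drought and 73.6, 103 and 63.2 under heat (log2 fold change -2.88 ± 0.20 (SE)). Of 6 senescence-linked genes, 4 were higher under drought and none under heat. The study listed 4 of the 6 as lower in onac023 than in DJ-WT under heat, a choice made on these heat libraries. It listed 3 as lower and 1 as higher under drought. OsSAG12-2, a vignain-type cysteine protease, had 62.6, 67.0 and 38.4 normalised CPM under drought and 2.28, 1.95 and 1.67 under heat (log2 fold change -4.83 ± 0.24 (SE)). In DJ seedlings NYC1, NYC3 and OsSAG12-2 were higher in drought than in normal watering (3.07, 1.99 and 3.04), and in ZH11 seedlings they were lower in heat than in normal conditions (-1.90, -1.04 and -1.37).

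**Figure D4:**
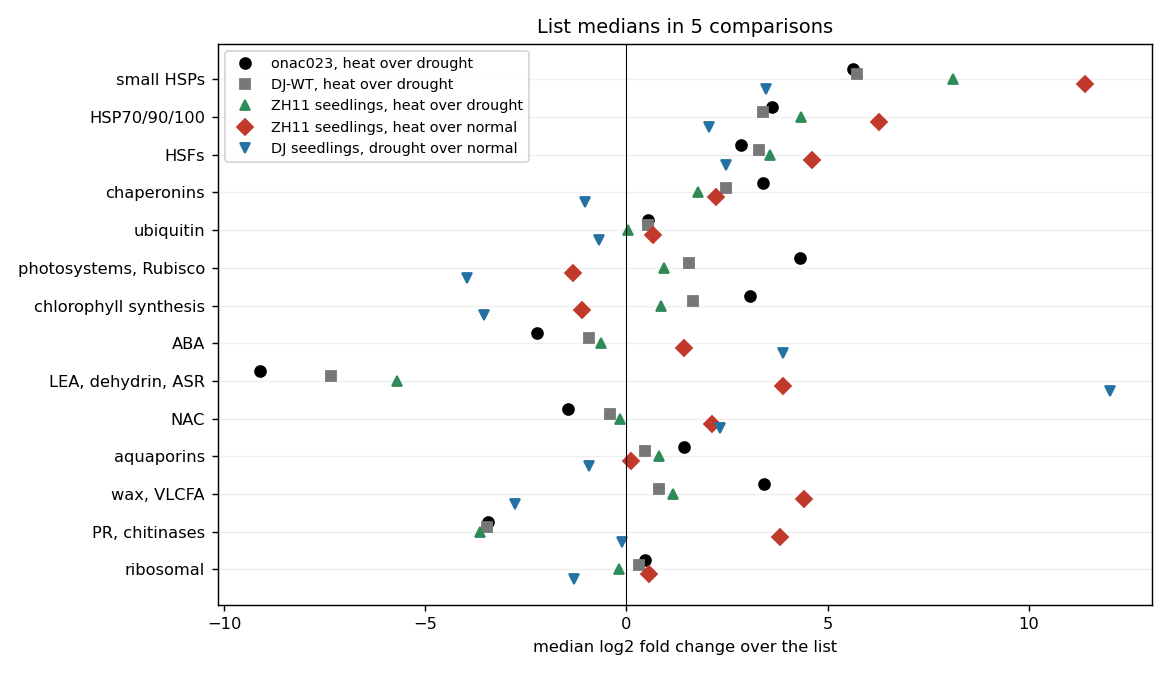
Median log2 fold change (x axis) of 14 gene lists in 5 comparisons, each with 3 libraries per group: heat over drought in onac023 (black), DJ-WT (grey) and ZH11 seedlings (green), heat over normal in ZH11 seedlings (red) and drought over normal in DJ seedlings (blue). The LEA list has a median of -9.11 in onac023 heat over drought and 12.02 in DJ drought over normal.

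The same contrast in ZH11 seedlings, which share no library with onac023, gave 36.3% of 25556 genes as DEGs, 18.1% in each direction. There, all 20 small heat shock protein genes were higher under heat (median 8.13), and 21 of 24 LEA, dehydrin and ASR genes were higher under drought (median -5.71). HSP101 had a log2 fold change of 9.34 and RAB16A of -5.51. Of 17 photosynthesis genes, 8 were higher under heat and 2 under drought (median 0.94), and of 11 heat shock factor genes 9 were higher under heat and 2 under drought (median 3.57). Whether these ZH11 values differ from those of onac023 was not tested, and the heat and drought libraries of ZH11 differ in how many counts 1 fragment gave.

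Aquaporins, which pass water across membranes, were mostly higher under heat. On libraries used here, the study listed 6 of 15 as lower in onac023 than in DJ-WT under drought and 6 under heat. It listed 4 as higher under drought. Of 14 genes tested out of 15, 9 were DEGs higher under heat and 4 were DEGs higher under drought (median 1.44); scaling by totals left 6 higher under heat and 4 under drought. OsPIP2;7 (LOC_Os09g36930), a plasma membrane channel, had 342, 225 and 162 normalised CPM under heat and 23.3, 29.9 and 15.7 under drought (log2 fold change 3.41 ± 0.31 (SE), edgeR adjusted p = 5.60e-06). The study names it as an ONAC023 target under drought, which required lower expression in onac023 than in DJ-WT on these drought libraries. In other seedlings OsPIP2;7 was lower than in normal conditions in both stresses (log2 fold change -4.54 in DJ drought and -5.18 in ZH11 heat). The tonoplast channel gene OsTIP3;1 went the other way, with 12.6, 16.6 and 20.8 under drought and 0.524, 0.0449 and 0.121 under heat (log2 fold change -6.19 ± 0.51 (SE)). The silicon channel gene Lsi1, a root marker, was higher under drought (-1.41 ± 0.14 (SE)). The 4 root markers took 0.00603% to 0.00730% of the counts under drought and 0.00145% to 0.00148% under heat, with 1 of the 4 at 0 in each drought library, and 2 of the 4 were DEGs in each direction. Their part in the aquaporin values was not tested.

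Wax genes were mostly higher under heat, and cell wall genes went both ways. Of 9 wax and very long chain fatty acid genes tested out of 10, 8 were DEGs higher under heat and 1 was higher under drought (median 3.43). The study listed 9 of the 10 as lower in onac023 than in DJ-WT under drought, a choice made on these drought libraries. ONI1, a ketoacyl-CoA synthase that elongates fatty acids in the shoot epidermis, had 278, 241 and 255 normalised CPM under heat and 15.0, 16.2 and 16.3 under drought (log2 fold change 4.03 ± 0.13 (SE), edgeR adjusted p = 1.19e-08). OsGL1-6, of the leaf wax pathway, had 21.9, 7.84 and 5.51 under heat and 0.180, 0.123 and 0.0565 under drought. Heat replicate 1 was the highest of these. Of 32 cell wall genes tested out of 39, 14 were higher under heat and 8 under drought (12 and 12 when scaled by totals). In ZH11 seedlings 21 of 38 tested were higher under heat than under drought and 2 lower, and 34 of 38 were higher in heat than in normal conditions (background 31.4%). The COBRA-like genes OsBC1L4 (3.58 ± 0.18 (SE)) and LOC_Os03g54750 (4.38 ± 0.24 (SE)), whose family guides cellulose deposition, were higher under heat. Of 5 markers of dividing cells, 3 were DEGs higher under heat and 1 under drought. They took 0.00267% to 0.00420% of the counts under heat and 0.00154% to 0.00172% under drought, with up to 2 of the 5 at 0 in a drought library, and their part in the wall and wax values was not tested. Of 6 panicle and meiosis markers, 4 passed the filter, with 1 DEG in each direction.

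Genes for pathogenesis-related proteins were mostly higher under drought, and other defence genes went both ways. Of 25 genes for pathogenesis-related proteins and chitinases tested out of 28, 15 were DEGs higher under drought and 5 were DEGs higher under heat (median -3.46; 2 under heat when scaled by totals). OsLP, a thaumatin-like protein, had 509, 714 and 595 normalised CPM under drought and 2.80, 1.62 and 2.17 under heat (log2 fold change -8.11 ± 0.27 (SE), edgeR adjusted p = 1.18e-08). Its neighbour TLP had 29.9, 30.0 and 25.7 under drought and 0.205, 0.0449 and 0.101 under heat. OsPR1b had 5.05, 5.76 and 11.5 normalised CPM under drought and no count under heat, at least 343-fold higher under drought. OsXIP, a xylanase inhibitor, had 54.0, 58.6 and 45.6 under drought and 0, 0.0449 and 0 under heat (log2 fold change -11.60 ± 0.36 (SE)). All heat libraries were thus at or near 0 for TLP, OsPR1b and OsXIP, and low for OsLP. Of the 28 genes, the study listed 13 as lower in onac023 than in DJ-WT under heat, a choice made on these heat libraries. It listed 13 as lower and 4 as higher under drought. Of 7 diterpenoid phytoalexin genes tested out of 10, 2 were higher under drought and 1 under heat (median -0.47). Of 10 jasmonate pathway genes tested out of 11, 4 were higher under drought and 3 under heat, near the shares of annotated genes given above. Among them were the repressor gene OsJAZ12 (-3.33 ± 0.13 (SE)) and OsJAR2 (3.79 ± 0.30 (SE)), named for the enzyme that conjugates jasmonate to amino acids.

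Redox enzymes, ferritins and metallothioneins were divided, with 8 of 16 higher under heat and 4 under drought (6 and 6 when scaled by totals). OsCATA, a catalase, had 876, 224 and 578 normalised CPM under heat and 23.7, 17.9 and 25.0 under drought (log2 fold change 4.65 ± 0.45 (SE)), and heat replicate 2 was the lowest heat library. The metallothionein gene OsMTI2B was also higher under heat (4.98 ± 0.33 (SE)). OsAOX1a, the alternative oxidase of mitochondria, was higher under drought (-2.37 ± 0.13 (SE)), although the annotation describes that locus as a transposon protein. The peroxidase gene POX5.1, in no list, was among the named genes with the largest differences, with 23.7, 35.1 and 16.6 normalised CPM under heat and 0.271, 0.102 and 0.358 under drought (6.66 ± 0.40 (SE)).

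Clock and light signalling genes comprised 5 higher under heat (3 when scaled by totals) and 2 higher under drought of 11. OsPIL13, a phytochrome-interacting factor, had 46.5, 40.0 and 29.0 normalised CPM under heat and 1.17, 0.574 and 0.753 under drought (log2 fold change 5.51 ± 0.28 (SE)). OsCOL15 (3.17 ± 0.18 (SE)) and OsCOL16 (3.08 ± 0.22 (SE)), of the CONSTANS-like family, were higher under heat. OsLHY, a morning factor of the clock, was higher under drought, with 76.0, 86.1 and 60.7 normalised CPM against 13.0, 14.2 and 9.15 (log2 fold change -2.62 ± 0.19 (SE)). The labels give no time of day for the harvests.

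Glutamine synthetases, which assimilate ammonium, went both ways. OsGS2, the plastid glutamine synthetase, had 1212, 1350.5 and 988 normalised CPM under heat and 61.7, 54.0 and 55.6 under drought (log2 fold change 4.37 ± 0.18 (SE), edgeR adjusted p = 3.44e-08), and its plastid partner OsFd-GOGAT was higher under heat as well (1.90 ± 0.16 (SE)). OsGS1;3, a cytosolic glutamine synthetase, had 113, 148 and 149.8 under drought and 2.80, 2.29 and 2.11 under heat (log2 fold change -5.83 ± 0.19 (SE)). Among the nitrogen genes 5 of 10 tested were higher under heat and 2 under drought, and among 17 sucrose and starch genes 10 were higher under heat and 2 under drought. On the same drought libraries, the study listed 9 of 11 nitrogen and 10 of 17 sucrose and starch genes as lower in onac023 than in DJ-WT. The sucrose transporter gene OsSUT1 was higher under drought (-3.43 ± 0.24 (SE)), and so was OsSPX-MFS1, of the vacuolar phosphate transporters (-3.95 ± 0.14 (SE)). Of 10 phosphate genes, 8 of them listed by the study as lower in onac023 than in DJ-WT under drought, 5 were higher under heat and 2 under drought. In the gibberellin pathway 5 of 8 genes were higher under heat, a count that rested on single libraries and on the filter. It was 3 without drought replicate 2, heat replicate 1 or heat replicate 2, 3 when scaled by totals, with the replicate block or with glmTreat, and 1 at a mean of at least 1 CPM. OsCPS1, its first enzyme, was higher under heat (3.45 ± 0.26 (SE)), and OsGA2ox6, which inactivates the hormone, was higher under drought (-4.49 ± 0.29 (SE)).

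Of the 17 genes tested among 18 that the study names, 6 were higher under heat and 5 under drought. These counts are near the shares of annotated genes given above. PGL3, a chloroplast signal recognition particle subunit that the study names as an ONAC023 target under drought, had 27.6, 25.9 and 17.7 normalised CPM under heat and 1.73, 1.33 and 1.53 under drought (log2 fold change 3.95 ± 0.21 (SE), edgeR adjusted p = 1.54e-07). OsFKBP20-1b, an immunophilin named as a target under heat, had 10.9, 10.8 and 11.5 under drought and 0.114, 0.337 and 0.0402 under heat (log2 fold change -6.09 ± 0.42 (SE)). Targets had to be lower in onac023 than in DJ-WT under the stress named, in libraries used here, so both directions follow in part from the choice. The splicing factor gene OsSF3B1 stood at 1.05, 1.35 and 1.47 under heat and 2.62, 1.82 and 2.11 under drought and was not a DEG (-0.76 ± 0.26 (SE), edgeR adjusted p = 0.0244). When scaled by totals its difference was -1.39 and it passed. The remorin gene OsREM1.5, whose product the study links to nuclear entry of ONAC023, had 1489.6, 1300.2 and 1304 normalised CPM under heat and 595, 669.6 and 637 under drought (1.11 ± 0.15 (SE)), and the importin gene OsIMP-α1b had 306, 409 and 366 under heat and 149, 166 and 155 under drought (1.20 ± 0.14 (SE)). Scaled by totals, these differences were 0.47 and 0.58 and neither passed. OsIMP-α1a was not a DEG (0.21 ± 0.18 (SE)). OsANN1, an annexin (-3.14 ± 0.20 (SE)), SPS, a sucrose phosphate synthase (-1.57 ± 0.15 (SE)), and OsAPT2, a phosphoribosyltransferase (-1.57 ± 0.21 (SE)), were higher under drought. The ubiquitin fusion gene, usual as a reference for qPCR, was at 159.6, 167 and 171 under heat and 106, 126 and 113 under drought (0.53 ± 0.12 (SE)), under the 2-fold limit.

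**Figure D5:**
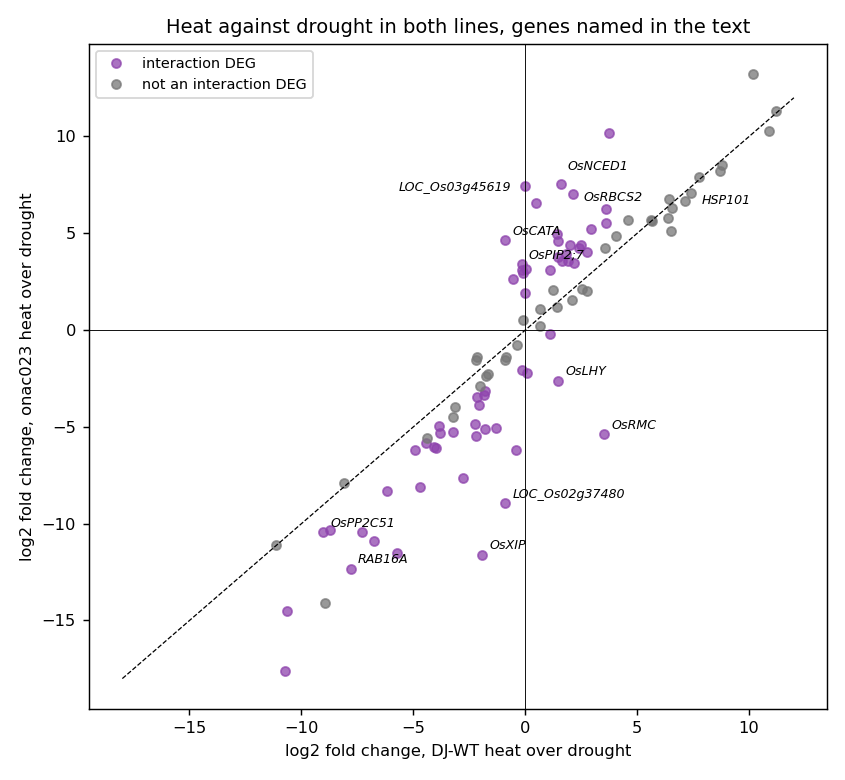
Log2 fold change of heat over drought in onac023 (y axis) against the same in DJ-WT (x axis) for genes named in the text, with purple points for interaction DEGs, grey points for others and a dashed line at equal values. HSP101 lies near the line, and OsXIP and OsRMC lie far below it.

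The difference between the stresses was tested against that in DJ-WT with a line-by-stress interaction over 12 libraries, of which 6 are the onac023 libraries described above. Of 25773 genes tested, the heat-minus-drought difference was greater in onac023 for 3789 (14.7%) and greater in DJ-WT for 2297 (8.91%). This split depended on normalization, with 3161 and 2990 under RLE factors and 3483 and 3274 in DESeq2. The DJ-WT libraries held ZH11-only genes, and the onac023 libraries part of them, as given above. Line and variety background therefore cannot be told apart in these values. In DJ-WT alone, 4554 genes (18.2% of 24960) were higher under heat and 5151 (20.6%) higher under drought.

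Few heat shock genes passed the interaction test. None of the 20 small heat shock protein genes was an interaction DEG, with medians of 5.63 in onac023 and 5.72 in DJ-WT, and HSP101 had 7.06 and 7.40. The interaction for HSP101 was -0.26 ± 0.38 (SE), which does not show that the lines acted alike. Of 16 larger chaperone genes, 2 had a greater difference in onac023, and of 11 HSF genes, 3 had a lower one. By contrast, 15 of 24 LEA, dehydrin and ASR genes had a lower heat-minus-drought difference in onac023 and 1 had a higher one, and 14 of 17 photosynthesis genes had a greater difference in onac023 and none a lower one. Both lists were drawn largely from genes that separated the lines under drought, so that these counts follow in part from the choice. RAB16A differed by -12.32 in onac023 and -7.80 in DJ-WT (interaction -4.45 ± 0.76 (SE), edgeR adjusted p = 0.00109), and OsRBCS2 by 7.01 and 2.13 (interaction 4.96 ± 0.65 (SE), edgeR adjusted p = 2.28e-04).

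Some genes differed between the lines in the sign or the size of their contrast. OsRMC (LOC_Os04g56430), a cysteine-rich receptor-like kinase gene, was higher under drought in onac023 (-5.39; 30.0, 53.4 and 31.5 normalised CPM under drought against 1.44, 0.651 and 0.664 under heat) and higher under heat in DJ-WT (3.52), with an interaction of -8.83 ± 0.71 (SE) (edgeR adjusted p = 1.73e-05). OsLHY was higher under drought in onac023 (-2.62) and had 1.48 in DJ-WT, where it was not a DEG (interaction -4.01 ± 0.69 (SE)). OsCATA was higher under heat in onac023 (4.65) and had -0.90 in DJ-WT, also not a DEG there (interaction 5.64 ± 0.92 (SE)). LOC_Os02g37480, a glycine-rich cell wall protein gene, had -8.94 in onac023 and -0.89 in DJ-WT, and the cytochrome P450 gene LOC_Os03g45619 had 7.45 in onac023 and was level in DJ-WT. OsRMC, OsXIP and these last 2 were among the 10 genes with the largest interactions that had a description. All 10 reached a mean of at least 5 normalised CPM in some group of either line. The other 6 were under 5 normalised CPM in every onac023 library and were left unnamed for that reason. OsNCED1 was higher under heat in both lines, by 7.55 in onac023 and 1.58 in DJ-WT. In ZH11 seedlings the same contrast was 3.72 for OsRMC, 2.51 for OsLHY, -1.17 for OsCATA and -0.56 for OsNCED1.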

How the data were processed

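RNA-seq of rice seedlings was analysed from deposited tables. The authors trimmed reads, aligned them to the MSU v7.0 rice genome (the study's methods name STAR and StringTie 1.3.1, and the submitters' processing notes HISAT2 and StringTie) and deposited estimated counts per gene, whole numbers that were used unrounded. The counting step and strand use are not given in the sources used here, so overlapping and antisense genes cannot be told apart. The lowest non-zero values show that 1 fragment gave 2 counts in the onac023 and DJ-WT libraries.

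Groups were taken from the labels, with 3 libraries each and no column left unused for want of a sample. Replicates of a group differed by more than sampling noise, and none was counted as a duplicate. Differences were tested by the quasi-likelihood F test of edgeR 4.0.16 (R 4.3.3), with TMM factors, filterByExpr and Benjamini-Hochberg adjustment over all genes tested. Each contrast was fitted on its own 6 libraries, and the interaction on 12. A DEG had an adjusted p under 0.05 and a difference over 2-fold. SEs were derived from each fold change and its F statistic. For a gene without a count in 1 stress, the fold is a bound set at 3 counts over the group. Normalised CPM are counts per 1000000 of the TMM-corrected library total. With these depths, 84 of 100 genes simulated with a 3-fold and 93 of 100 with a 4-fold difference were recovered in the onac023 contrast, with 8 false calls among 23506 genes. Only 200 genes were changed in this simulation, evenly in both directions, from means shared by both stresses. It held no shift in composition, so it cannot give the error of calls that depend on normalization. Alternatives were RLE and upper-quartile factors, DESeq2 1.42.0, other filters, glmTreat, a replicate block, single libraries left out and, chosen after seeing the data, scaling by totals.

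Gene names came from annotation columns of the study's supplementary tables, which cover only genes in those tables. The authors' fold changes and p-values were not used. Gene lists were drawn by name and description, and variety genes by at least 1 CPM in all seedlings of one variety. Many list members had been listed by the study as differing between the lines, on libraries used here. The gene groups, lists and tests were chosen with earlier results of these data known. Named genes were those the study names, up to 3 DEGs per direction and list with the largest difference (mean of at least 5 normalised CPM, no overlap of libraries), the 10 largest named DEGs per direction, the 5 largest interactions per direction with a description, and the 10 highest means per stress. OsCAO2 was named outside this rule after its values were seen. Interaction genes under 5 normalised CPM in every onac023 library were left unnamed. No sequence was used.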

Additional observations from a re-analysis of the deposited data

Results flagged for a closer look

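The heat-minus-drought difference of onac023 differed from that of DJ-WT by the interaction test for 3789 genes in 1 direction and 2297 in the other. The DJ-WT libraries, and in part the onac023 libraries, also express genes of the variety ZH11, and line and variety background cannot be told apart. Many of the genes were listed by the study on the same libraries, so these values are descriptions. All differences below are onac023 minus DJ-WT on the log2 scale.

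Among genes of the chloroplast, the difference was 6.55 for the antenna gene LOC_Os01g52240, 4.96 for OsRBCS2 and 2.22 for PGL3. For ABA synthesis it was 6.04 for OsNCED1 and -3.67 for OsNCED4, opposite signs for the same enzyme step. It was -4.45 for RAB16A, -4.78 for OsSalT, 3.12 for Asr3 and -1.27 for OsANN1. For water channels it was 3.64 for OsPIP2;7 and -5.68 for OsTIP3;1. The NAC gene SNAC1 had -1.21, the wax gene OsGL1-6 6.20, the xylanase inhibitor gene OsXIP -9.62, the catalase gene OsCATA 5.64 and the clock gene OsLHY -4.01. OsFKBP20-1b had -2.01, the receptor-like kinase gene OsRMC -8.83, the cell wall protein gene LOC_Os02g37480 -7.97 and the cytochrome P450 gene LOC_Os03g45619 7.54.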

How the results depend on the processing

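In onac023, the counts of 6004 and 5837 DEGs stayed within 1.5 times under RLE and upper-quartile factors, DESeq2, both filters, glmTreat, the value of 1 fragment, the 12-library fit and each library left out (5925 to 6099 higher under heat and 5727 to 5968 higher under drought). Scaling by totals, chosen after seeing the data, gave 3892 and 9335 in onac023, 2451 and 9439 in DJ-WT, and 2975 and 7482 in ZH11, with median log2 fold changes of -0.66, -0.69 and -0.49. In DJ drought against normal it gave 4353 higher and 10066 lower, and upper-quartile factors gave 5302 and 8250. Testing against a 2-fold difference (glmTreat) gave 2684 and 3050 DEGs in DJ-WT, 1447 and 752 for the interaction, and 2427 and 2401 in ZH11. OsREM1.5 and OsIMP-α1b were then not called, nor the interactions of SNAC1, OsFKBP20-1b and OsANN1.

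Leaving out each library gave 4285 to 4804 and 4707 to 5574 DEGs in DJ-WT, 2933 to 4559 and 1996 to 2580 for the interaction, 3508 to 5055 and 3741 to 5023 in ZH11 heat against drought, 6045 to 6280 and 6993 to 7376 in DJ drought against normal, and 7664 to 8097 and 5827 to 6610 in ZH11 heat against normal. The difference in genes detected ranged from -1492 to -1321 without 1 library, and was -1230 at 0.5 CPM and -1272 in thinned counts. All of these rest on library totals without composition factors.

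Replicate numbers did not pair the onac023 libraries (correlations of deviations of 0.0121, -0.0346 and 0.00245 for equal numbers). Across the lines, heat libraries of equal number correlated more in the interaction fit (0.306, 0.253 and 0.0806). Those of unequal number ranged from -0.258 to 0.0855, and drought libraries of equal number from -0.0458 to -0.0145. With the replicate number as a block, 5861 and 5760 genes were DEGs in onac023, 4243 and 4864 in DJ-WT, 3739 and 2283 for the interaction, 4266 and 4207 in ZH11 heat against drought, 6074 and 6992 in DJ, and 7471 and 6044 in ZH11 heat against normal. With 3 libraries per group, an exact test cannot go below p = 0.1.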
